A study of Mus musculus with 5 samples.

Results

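The Hoxc cluster on mouse chromosome 15 holds 9 homeobox genes, Hoxc13, Hoxc12, Hoxc11, Hoxc10, Hoxc9, Hoxc8, Hoxc6, Hoxc5 and Hoxc4, out of 21938 protein-coding genes on the nuclear chromosomes of the annotation used. The 9 genes were selected by position. All peaks of H3K27me3 within chr15:102896103-103061852 (GRCm38), which runs from 25 kb before the Hoxc13 start to 25 kb past the Hoxc4 end over 165.75 kb, were collected and assigned to genes and intergenic stretches by GENCODE M21. No measured value chose the genes. Chromatin immunoprecipitation followed by sequencing (ChIP-seq) had been done on molars of wildtype C57BL/6 mice at postnatal day 3, from which the epithelium was removed so that the mesenchyme remained. There were 5 libraries, namely 2 H3K27me3 libraries, 2 input libraries of chromatin without an antibody and 1 library made with IgG, an antibody with no chromatin target. All 5 libraries share this genotype, strain and age, and none was treated. Whether the 2 H3K27me3 libraries were made from different mice or from pooled molars is not given in the sources used here, so every SD is the spread between 2 libraries and may be technical. Histone peaks give no RNA level, so that the tissue label could not be checked against cell type markers.

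Hox genes encode homeodomain transcription factors that give cells along the body axis their regional identity, and the genes of a cluster lie in the order in which they are used. Hoxc4 at the 3′ end of the cluster is used in the neck and anterior trunk, and Hoxc13 at the 5′ end is used at the most posterior levels and in hair follicles and nails. Trimethylation of histone H3 at lysine 27 (H3K27me3) is placed by Polycomb repressive complex 2 (PRC2), whose methyltransferase is Ezh2, and it typically spreads as broad domains over silent Hox clusters. Molar mesenchyme derives from neural crest of the first branchial arch, a crest population known for lacking Hox expression. In bulk tissue, fewer cells that carry the mark and fewer marked nucleosomes per cell cannot be told apart.

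The peaks were short compared with the domains this mark usually forms, and a few of them are shown as sequence. The first 3 are from the 7 places where the replicates met. They are bases inside a peak of replicate 1 and a peak of replicate 2, between Hoxc12 and Hoxc11 and in the stretch between Hoxc5 and Hoxc4. The next is a whole replicate 1 peak that ends 107 bp before the start of the Hoxc9 gene record, shown for its place at a start site. The last is the replicate 1 peak with the highest fold enrichment of the cluster. All are read 5′ to 3′ on the plus strand of GRCm38.p6, and capitals mark CG dinucleotides, the sites of DNA methylation.
Hoxc12 to Hoxc11, chr15:102940925-102941035: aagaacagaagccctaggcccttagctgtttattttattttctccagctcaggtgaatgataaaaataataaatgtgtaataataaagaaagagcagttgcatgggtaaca
Hoxc5 to Hoxc4, chr15:103022339-103022585: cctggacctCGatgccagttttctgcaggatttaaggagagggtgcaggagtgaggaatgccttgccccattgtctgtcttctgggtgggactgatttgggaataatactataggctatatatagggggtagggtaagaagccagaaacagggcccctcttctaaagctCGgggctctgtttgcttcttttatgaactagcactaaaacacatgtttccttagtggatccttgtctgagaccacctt
Hoxc5 to Hoxc4, chr15:103026098-103026228: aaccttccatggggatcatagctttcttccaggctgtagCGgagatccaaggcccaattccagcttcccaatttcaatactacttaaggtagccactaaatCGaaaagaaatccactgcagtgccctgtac
before Hoxc9, chr15:102976287-102976332: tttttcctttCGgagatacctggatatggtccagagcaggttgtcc
highest peak, chr15:103028556-103028644: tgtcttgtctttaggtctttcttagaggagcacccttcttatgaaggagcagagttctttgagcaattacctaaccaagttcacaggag
The 3 shared stretches shown hold 0, 2 and 2 CG dinucleotides and the highest peak holds 0, while the 46 bp before Hoxc9 hold 1. Of the shared places not shown, 183 bp in Hoxc11 hold 5 and 81 bp reaching coding sequence of Hoxc4 hold 7. The others, 29 bp before Hoxc13 and 12 bp inside Hoxc4, hold 0.

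The authors deposited 3 lists of peaks, replicate 1 against input, the same H3K27me3 library against IgG, and replicate 2 against its own input. They drew on 30369351 tags in replicate 1 and 49947919 in replicate 2 after duplicates were removed, against 23688420, 24440452 and 51681224 control tags. Tags were 49 bp long in replicate 1 and 74 bp in replicate 2, so that depth, tag length and replicate cannot be told apart. The Hoxc window held 105 of the 22757 peaks of replicate 1 against input, 118 of the 24881 peaks against IgG and 38 of the 33379 peaks of replicate 2. The deeper library with the longer list thus had fewer peaks at Hoxc.

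The covered share, the percentage of bases inside a peak, was 10.9% of the window in replicate 1 against input, 13.3% with IgG as its control and 5.63% in replicate 2. The mean over both replicates against input was 8.26% ± 3.72 (SD, n = 2). Over the whole genome the same lists covered 0.113%, 0.126% and 0.245% of bases, so the Hoxc window was covered 96.0-fold, 105-fold and 22.9-fold above its genome. The chromosomes were also cut into 16433 tiles of the window's length. Tiles with at least as many peaks as the Hoxc window made up 0% for replicate 1 against either control and 0.0243% for replicate 2, and the 4 tiles of replicate 2 all touched a Hox cluster. The fullest tile away from the 4 Hox clusters held 63, 72 and 26 peaks in the 3 lists, fewer than the Hoxc window in each. The tiles keep a fixed grid, so that a cluster can be split over neighbours.

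**Figure D1:**
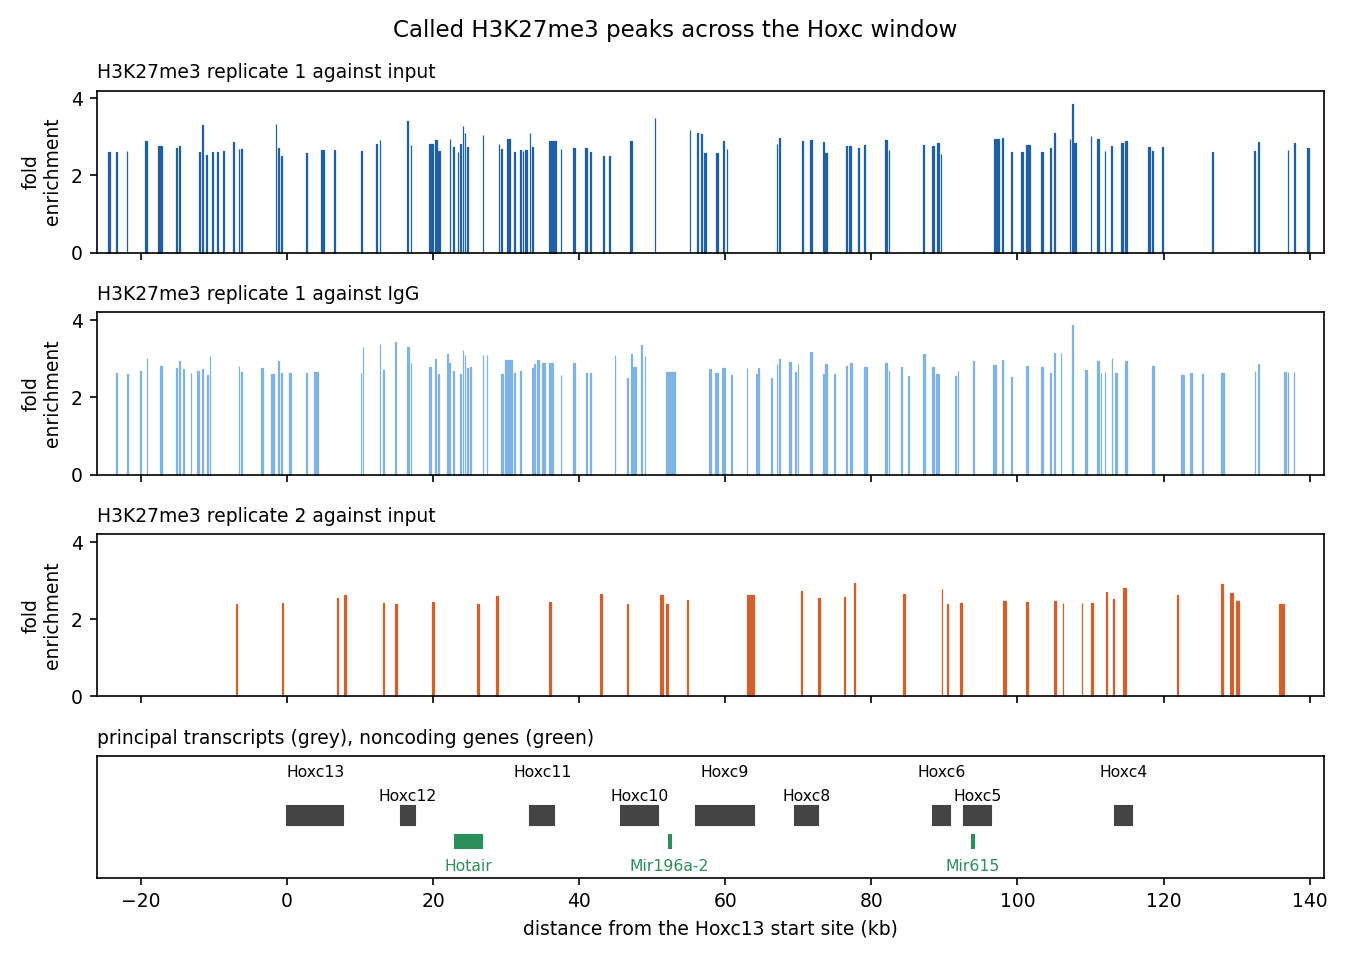
Every called peak of the Hoxc window, drawn at its position in kb from the Hoxc13 start site (horizontal axis) with its fold enrichment over the control (vertical axis, from 0), in the 3 lists, above the principal transcripts (grey) and noncoding genes (green). The 105 and 118 peaks of replicate 1 and the 38 peaks of replicate 2 all lie below a fold enrichment of 3.87 and run through genes and intergenic stretches alike.

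All 9 genes, taken as the principal (APPRIS) transcript with 1 kb on each side, held at least 1 peak in each of the 3 lists. For Hoxc5 in both replicates and Hoxc12 in replicate 2 these peaks lay only in the added 1 kb, with 0% of the transcript covered. The gene record with 1 kb on each side also held a peak for 9 of 9 members in every list, compared with 20.6%, 21.3% and 30.2% of all protein-coding genes in the lists taken singly and 10.7% in all 3. Within 1 kb of the 5′ end of the gene record, 7 members were marked in replicate 1 against input, 8 in the IgG-called list and 8 in replicate 2, where 3.87%, 4.52% and 4.16% of protein-coding promoters had one. Both replicates had a promoter peak at Hoxc4, Hoxc5, Hoxc6, Hoxc9, Hoxc12 and Hoxc13, 6 of 9 members beside a background of 1.04%. Counting every annotated transcript start added Hoxc8, which made 7 of 9 beside 1.91%.

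The posterior end of the cluster was marked close to its start sites, but not at the same bases in each list. Hoxc13, which acts in hair and nail formation, had its nearest peak 698 bp upstream of its start in replicate 1, 299 bp downstream in the IgG-called list and 554 bp upstream in replicate 2. The upstream peaks of the replicates shared 29 bp. Hoxc12, its 3′ neighbour, had its nearest peak 774 bp downstream in replicate 1, with a fold enrichment of 3.40, and 773 bp downstream in the IgG-called list, with 3.30. In replicate 2 the nearest peak to Hoxc12 lay on the other side, 578 bp upstream, with 2.39. Hoxc11, a gene of the posterior group that includes Hoxa11 and Hoxd11, stood out by its difference between the libraries, with peaks within 1 kb of its start in both calls of replicate 1, but the nearest 2490 bp downstream in replicate 2. It was therefore the only member without a replicate 2 peak within 1 kb of its record's 5′ end.

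Hoxc10, which is used in lumbar motor neurons and the hindlimb, was the other way round. Its nearest replicate 1 peak lay 1260 bp downstream and its nearest replicate 2 peak 884 bp downstream, with an IgG-called peak 756 bp upstream. Hoxc9, a thoracic gene, had peaks 107 bp upstream in replicate 1 and 427 bp upstream in replicate 2, whereas the nearest IgG-called peak lay 2207 bp upstream. Hoxc9 was thus the only member without an IgG-called promoter peak.

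Of the anterior members, Hoxc8, which patterns the thoracic skeleton, had a peak over its start only in replicate 1 called against IgG. The nearest peaks lay 1062 bp downstream in replicate 1 and 921 bp downstream in replicate 2. Hoxc6, a gene of the thoracic and mammary region, had peaks over its record start in both calls of replicate 1 and 467 bp downstream in replicate 2. The latter had the highest fold enrichment of replicate 2 in the window, 2.94 at a pileup of 7.56 tags.

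The gene records of Hoxc6, Hoxc5 and Hoxc4 begin with long noncoding or alternative transcripts, 11316, 46372 and 15461 bp upstream of the principal start. The Hoxc5 record begins inside Hoxc10, and the replicate 2 peak at 102967680 to 102967750 served both promoters. At the principal starts, Hoxc5, a cervical gene, had its nearest peak 3140 bp upstream in replicate 1, 799 bp upstream against IgG and 293 bp upstream in replicate 2. At Hoxc4, the most anterior gene, the distances from the principal start were 344 bp upstream, 4 bp downstream and 38 bp upstream. With principal starts, both replicates had a peak within 1 kb at 3 of 9 members, Hoxc4, Hoxc12 and Hoxc13. No share over all protein-coding genes is given for principal starts, so this count has no background beside it.

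**Figure D2:**
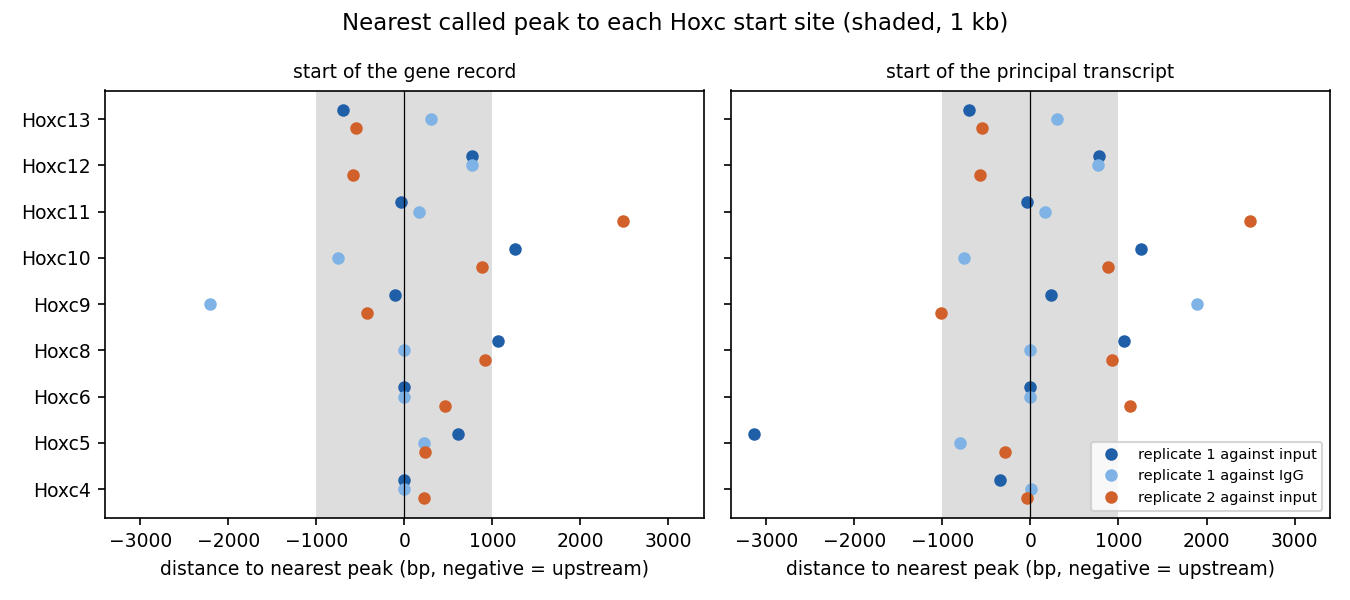
Distance in bp from each Hoxc start site (rows) to the nearest edge of the nearest peak (horizontal axis, negative for upstream, 0 where the peak covers the start) in the 3 lists, for the start of the gene record and of the principal transcript. Most points fall in the shaded 1 kb, and the exceptions, such as Hoxc11 in replicate 2 at 2490 bp, differ between lists.

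The covered share of each locus, again the principal transcript with 1 kb on each side, varied between genes and between lists. Hoxc11 had 27.9% in replicate 1, 25.6% against IgG and 5.26% in replicate 2, the widest gap between replicates of any member. Hoxc4 was alike in all 3 lists, with 12.3%, 14.4% and 13.95%. Hoxc9 had 9.72%, 14.8% and 8.46%. The ranking by the mean over replicates was thus led by a gene whose replicates disagreed, Hoxc11 at 16.6% ± 16.0 (SD, n = 2), ahead of Hoxc4 at 13.1% ± 1.16 and Hoxc9 at 9.09% ± 0.892. Hoxc6 (7.88% ± 4.15), Hoxc13 (7.47% ± 2.29) and Hoxc8 (7.14% ± 0.0678) came next, and Hoxc5 (6.49% ± 3.49), Hoxc12 (5.77% ± 0.679) and Hoxc10 (5.06% ± 1.98) last.

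Between neighbours in this order, only Hoxc4 and Hoxc9 were apart by more than the larger of their SDs, by 4.04 percentage points. The same 2 libraries measured all 9 loci, so these SDs do not gauge differences between genes. Hoxc4 lay above Hoxc9 in both libraries against input, with 12.3% and 9.72% in replicate 1 and 13.95% and 8.46% in replicate 2. Their order depended on the control, since replicate 1 called against IgG had 14.8% at Hoxc9 and 14.4% at Hoxc4. Hoxc10 was last in both calls of replicate 1 but had rank 4 in replicate 2. Hoxc4 was the highest member in replicate 2, the second in replicate 1 and the fifth against IgG.

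**Figure D3:**
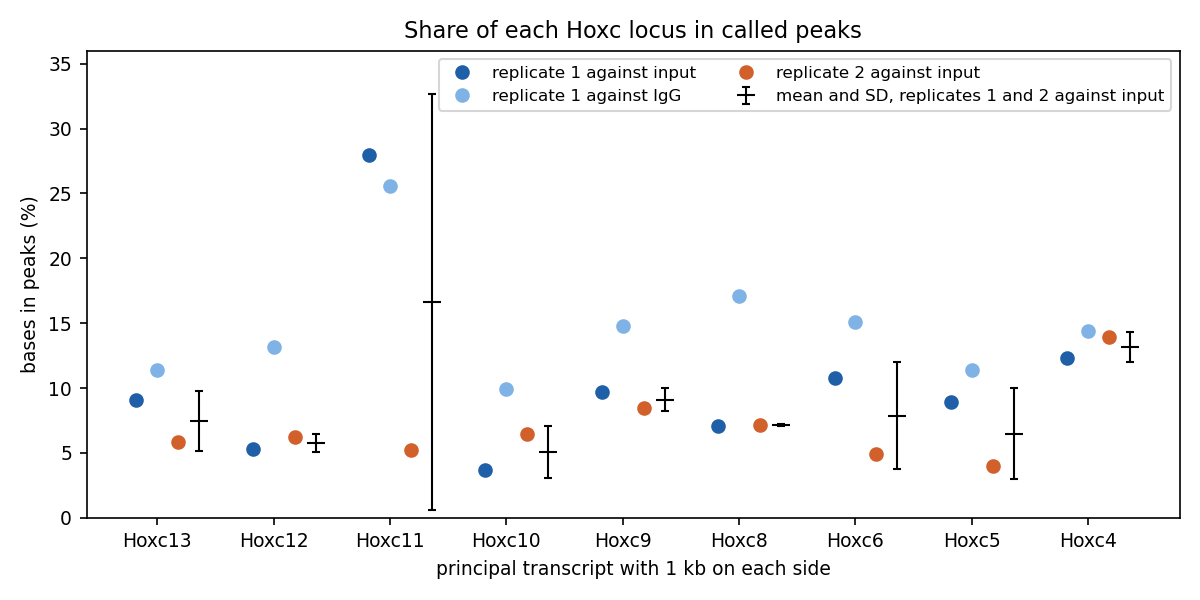
Percentage of bases inside peaks (vertical axis) for each Hoxc gene, from posterior to anterior, with one point per list and the mean and SD over replicates 1 and 2 against input (n = 2). Hoxc11 spans 5.26% to 27.9%, and the Hoxc4 values lie between 12.3% and 14.4%.

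The mark did not keep to the genes. In replicate 1, 21 peaks had their midpoint in the 9 principal transcripts, 56 in the 8 stretches between them and 28 in the flanks, and the covered shares were 10.6%, 11.95% and 9.47%. Replicate 2 had 8, 23 and 7 peaks with 5.48%, 6.83% and 3.86% covered. The stretches between genes were covered more than the genes by 1.38 percentage points in replicate 1 and 1.35 in replicate 2, but less, by −2.82, when replicate 1 was called against IgG. Long transcripts of Hoxc6, Hoxc5 and Hoxc4 run through several of these stretches, so some peaks between principal transcripts lay in introns. Over the whole window, 37 replicate 1 peaks (35.2%) lay in introns and 51 (48.6%) were intergenic. Introns made up 37.6% of the window's bases and intergenic sequence 47.9%, close to these shares. Peaks touching coding sequence numbered 4, 11 and 2 in the 3 lists, or 3.81%, 9.32% and 5.26% of the window's peaks. Coding sequence made up 4.49% of the window's bases. Of these coding bases, peaks covered 6.66%, 16.0% and 4.55%, beside 10.9%, 13.3% and 5.63% of the whole window.

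The stretch of 16965 bp between Hoxc5 and Hoxc4, covered to 13.7% ± 6.21 (SD, n = 2), held 15 peaks in replicate 1, 14 against IgG and 8 in replicate 2, with covered shares of 18.1%, 13.4% and 9.28%. It contains the 5′ part of the longer Hoxc4 transcript. It held the highest replicate 1 peak of the window, at 103028556 to 103028644 in an intron of that transcript, with a fold enrichment of 3.85 and a pileup of 5.09, equal to 6.53 tags before scaling. The IgG-called list had its highest peak within a few bases of it, with 3.87, but replicate 2 had no peak there.

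Between Hoxc12 and Hoxc11 lies Hotair, a noncoding RNA gene on the minus strand whose human counterpart has been described as a PRC2-binding RNA. This stretch of 15817 bp had 19 and 17 peaks in the calls of replicate 1 but 3 in replicate 2, with covered shares of 18.7%, 18.2% and 5.82%. Within Hotair itself there were 5, 5 and 1 peaks, and the nearest peak to its start lay 217 bp away in both calls of replicate 1 and 302 bp away in replicate 2. Among the small noncoding genes of the window, Gm27535, in the same stretch, was fully inside a replicate 2 peak and in no peak of replicate 1. 5730585A16Rik, a transcript model of unresolved type past Hoxc4, held 1 peak in each call of replicate 1 and 0 in replicate 2.

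Between Hoxc10 and Hoxc9 the controls gave different pictures of the same library. Replicate 1 had 1 peak against input and covered 0.895% of this stretch, whereas against IgG it had a single peak of 1266 bp, a length that no peak of that list exceeded anywhere in the genome, and covered 24.6%. Replicate 2 had 3 peaks and covered 16.3%. The IgG-called peak, at 102972967 to 102974232, contains Mir196a-2, a microRNA gene whose product represses Hoxb8, and a replicate 2 peak ended 87 bp before the gene. Mir615, inside Hoxc5, lay in no peak, and the distance from its 5′ end to the nearest peak was 120 bp in the IgG-called list, 1388 bp in replicate 2 and 3017 bp in replicate 1. The mature microRNAs are given from RefSeq (GRCm38.p6), with the seed, bases 2 to 8, in capitals.
mmu-miR-196a-5p, chr15:102973365-102973386, plus strand: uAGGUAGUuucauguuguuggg
mmu-miR-615-3p, chr15:103014969-103014990, plus strand: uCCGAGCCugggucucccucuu
The former lay inside the IgG-called peak and 102 bp from the nearest replicate 2 peak, and the latter lay 40 bp from an IgG-called peak.

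The posterior and anterior parts of the cluster were covered to a like degree. From Hoxc13 to Hoxc9, 63.997 kb, the covered share was 11.6% in replicate 1, 15.1% against IgG and 6.32% in replicate 2. From Hoxc8 to Hoxc4, 46.246 kb, it was 12.3%, 13.3% and 7.24%. Posterior minus anterior, the difference was −0.746 percentage points in replicate 1 and −0.923 in replicate 2, but 1.85 when replicate 1 was called against IgG. Its mean over the replicates was −0.835 ± 0.125 percentage points (SD, n = 2), and the sign depended on the control.

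The flanks differed in how close the replicates were. In the 25 kb before Hoxc13, replicate 1 had 19 peaks and covered 12.6%, the IgG-called list had 19 and covered 12.6%, and replicate 2 had 2 and covered 1.28%. In the 3′ flank, past the Hoxc4 principal transcript, the replicates were close in amount, with 9 and 5 peaks and covered shares of 6.30% and 6.44%. The peaks lay at different places, since none of the replicate 1 peaks there overlapped a replicate 2 peak. Over all 19 genes, stretches and flanks, replicate 1 was covered more than replicate 2 in 14, less in 4 and neither was covered in 1, the Hoxc5 principal transcript.

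Peaks were weak and short in every list. In replicate 1 their fold enrichment had a median of 2.75 and ran from 2.51 to 3.85, beside a median of 2.63 over all its peaks. Against IgG it had a median of 2.77 (2.51 to 3.87) beside 2.66 over the list, and in replicate 2 a median of 2.49 (2.39 to 2.94) beside 2.45. The fold enrichment is the pileup over the control background with a pseudocount of 1 added to both, which shrinks it most at low depth, so that it is not comparable between replicates. Peak lengths at Hoxc had medians of 159, 142.5 and 227.5 bp in the 3 lists, beside 119, 120 and 181 bp over all peaks. The shortest had 46, 46 and 71 bp, equal to the modelled fragment length of each list. Lengths are thus bounded below by the calling and are not comparable between replicates. Before scaling, the median pileup at Hoxc was 4.41, 4.55 and 6.41 tags.

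Fewer Hoxc peaks than peaks elsewhere stood at the lowest pileup that a list contains. Those at the lowest pileup were 19.0% of Hoxc peaks in replicate 1 (95% Wilson interval 12.7 to 27.6), 11.02% (6.55 to 17.9) against IgG and 21.1% (11.1 to 36.3) in replicate 2, where all peaks gave 44.5%, 35.1% and 37.9%. All 3 of these intervals lay below the shares of the whole lists. A fold enrichment of 3 or higher was reached by 13.3% (8.11 to 21.1) of Hoxc peaks in replicate 1 and 18.6% (12.6 to 26.6) against IgG, beside 8.96% and 10.7% of all peaks, and only the latter interval left out the share of its list. In replicate 2 it was reached by 0 of 38 peaks, with an upper limit of 9.18%, beside 1.56% of all. At a p-value of 0.001 or lower stood 6, 22 and 6 Hoxc peaks, or 5.71%, 18.6% and 15.8%, beside 3.27%, 11.3% and 11% of all peaks, and only the IgG-called share had an interval that left out the list's share. These intervals cover counting error only, and neighbouring peaks of a cluster are not independent.

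The replicates marked the same cluster but seldom the same bases. Of the 105 replicate 1 peaks, 7 (6.67%, 95% Wilson interval 3.27 to 13.1) overlapped a replicate 2 peak by at least 1 base, beside 2.85% of all replicate 1 peaks. Of the 38 replicate 2 peaks, 6 (15.8%, 7.44 to 30.4) overlapped a replicate 1 peak, beside 1.9% of all. The bases in peaks of both replicates came to 794, or 0.479% of the window, out of 26582 in either. The median distance from a replicate 2 peak to the nearest replicate 1 peak was 326.5 bp, and the longest was 2790 bp. Within 1 kb, 28 replicate 2 peaks (73.7%) had a replicate 1 peak, beside 7.46% of all, and 46 replicate 1 peaks (43.8%) had a replicate 2 peak, beside 12.7%. A window this rich in peaks leaves few bases far from any peak, so that both overlap and nearness also follow from peak number. The shares over all peaks come mostly from regions with far fewer peaks. They do not allow for this density, so no better agreement at Hoxc can be read from them.

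The 7 places of overlap were 12 to 247 bp long and spread over the cluster. They lay before Hoxc13, between Hoxc12 and Hoxc11, in the transcribed 3′ end of Hoxc11, at 2 places in the long Hoxc4 intron and at 2 ends of the same replicate 2 peak inside Hoxc4. At 5 of the 7 an IgG-called peak was present as well. The Hoxc11 place belonged to the longest peak of replicate 1 in the window, 946 bp at 102957012 to 102957957. The Hoxc4 peak of replicate 2, at 103035506 to 103035908, reached coding sequence and had a fold enrichment of 2.81.

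The controls used for replicate 1 also mattered. Of its 105 input-called peaks, 71 (67.6%, 58.2 to 75.8) overlapped an IgG-called peak, beside 51% of all, and 12 had both ends at the same base. Conversely 71 of the 118 IgG-called peaks (60.2%, 51.2 to 68.5) overlapped an input-called peak, beside 46.6% of all. Since both lists use the same H3K27me3 library, this overlap is no replication. Replicate 2 met the IgG-called list at 10 of its 38 peaks (26.3%, 14.97 to 42.0), beside 2.44% of all its peaks. These shares, too, are not adjusted for the density of peaks in the window.

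Outside the window the peaks thinned out on both sides. In the 250 kb before it, replicate 1 had 14 peaks and covered 0.654%, and replicate 2 had 10 and covered 0.928%. In the 250 kb after it they had 22 and 15 peaks and covered 1.49% and 2.00%. The window exceeded its sides together by 9.82 percentage points in replicate 1, 11.8 against IgG and 4.16 in replicate 2, with a mean of 6.99 ± 3.997 (SD, n = 2). Of 8 other protein-coding genes within 250 kb, 7 had no peak of any list within 1 kb of their 5′ end, and Smug1, which encodes a DNA repair glycosylase, had an IgG-called peak 460 bp from it.

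The enrichment did not stop at the window's 3′ edge. In the next 10 kb, which were singled out after their values were seen and which no annotated gene touches, there were 8, 9 and 5 peaks and covered shares of 18.9%, 18.3% and 23.2%. This was more than the window's own share in every list, and in replicate 2 more than in any member locus. Here 3 of the 8 replicate 1 peaks overlapped a replicate 2 peak.

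**Figure D4:**
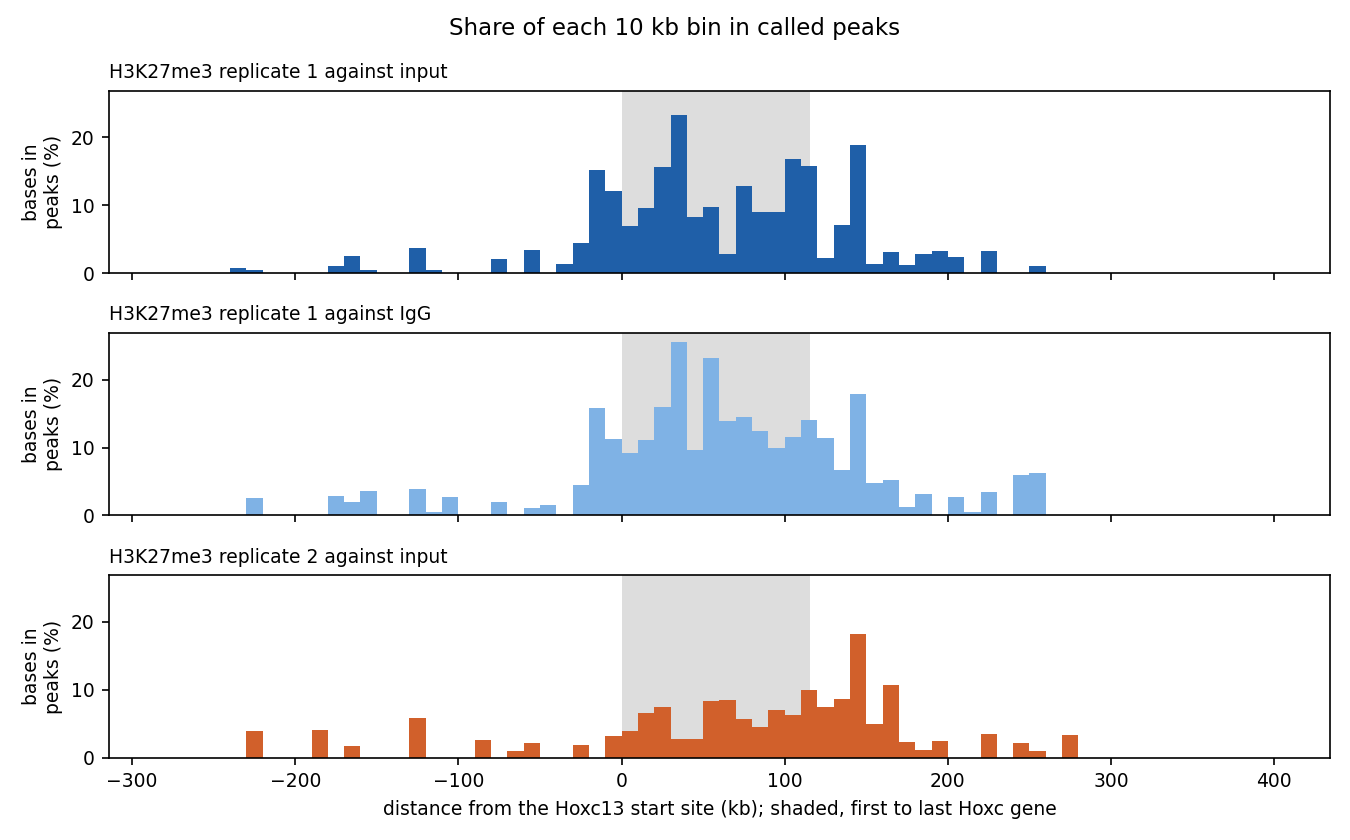
Percentage of bases inside peaks (vertical axis) in bins of 10 kb over the Hoxc window and 250 kb on each side, by distance from the Hoxc13 start site (horizontal axis), in the 3 lists, with the span from the first to the last Hoxc gene shaded. In the bin from 140 to 150 kb, past Hoxc4, the lists have 18.9%, 17.8% and 18.2%, and in the bin from −20 to −10 kb, before Hoxc13, they have 15.2%, 15.8% and 0%.

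Peaks no more than 5 kb apart were merged to see how far the mark ran without a break. In replicate 1 the longest merged stretch was 84.752 kb with 63 peaks and took in Hoxc13, Hoxc12, Hoxc11, Hoxc10 and Hoxc9. Against IgG it was 143.304 kb with 107 peaks, from before Hoxc12 to past Hoxc4. In replicate 2 it was 16.746 kb with 9 peaks and took in Hoxc4 alone. The longest stretch common to both replicates was this last one, 16.746 kb at 103019163 to 103035908, which lay wholly inside a 23.128 kb stretch of replicate 1. The largest gap between peaks inside the window was 7251 bp in replicate 1, over the Hoxc5 principal transcript, and 8130 bp in replicate 2, over most of Hoxc9.

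The sequence under the peaks was close to that of the rest of the window. The CpG ratio, the number of CG dinucleotides over that expected from the base composition, averaged 0.283 in the 500 bp around replicate 1 peaks and 0.282 in 500 bp tiles without a peak. Against IgG the averages were 0.301 and 0.275, and in replicate 2 they were 0.334 and 0.272. The mean difference of 0.0314 ± 0.0433 (SD, n = 2) was smaller than its SD. The window as a whole had a CpG ratio of 0.322, against 0.197 for chromosome 15, and 17.8% of it was masked as repeats, against 32.6% of the chromosome. Surroundings rich in CpG, with at least 50% GC and a ratio of at least 0.6, were found at 7.62%, 10.2% and 10.5% of Hoxc peaks, beside 2.66%, 3.37% and 2.06% of all peaks, but also at 10.4%, 8.94% and 9.75% of the peak-free tiles of the window.

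Compared with the other Hox clusters, each taken from the first to the last gene with 25 kb on each side, Hoxc had the most peaks per 10 kb in replicate 1 against input and the fewest in replicate 2. Hoxc had 6.33, 7.12 and 2.29 peaks per 10 kb in the 3 lists. Hoxa had 5.67, 7.15 and 2.70, Hoxb had 5.18, 6.88 and 3.53, and Hoxd had 4.97, 5.52 and 2.66. The ratio of replicate 1 to replicate 2 density was 2.76 at Hoxc, against 2.095 at Hoxa, 1.47 at Hoxb and 1.87 at Hoxd. The mean covered share was 8.26% ± 3.72 at Hoxc, 10.8% ± 1.74 at Hoxa, 10.8% ± 1.78 at Hoxb and 8.79% ± 0.107 at Hoxd (SD, n = 2 each). These SDs are spreads between libraries, and the same 2 libraries measured all 4 clusters, so they do not gauge differences between clusters. In replicates 1 and 2, Hoxc had 10.9% and 5.63%, Hoxa 12.1% and 9.59%, Hoxb 12.1% and 9.56%, and Hoxd 8.87% and 8.71%. Hoxc thus lay below Hoxa and Hoxb in both replicates, and below Hoxd in replicate 2 only.

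The replicate 1 peaks overlapped by replicate 2 were 17.0% (95% Wilson interval 10.6 to 26.2) at Hoxa, 22.4% (15.8 to 30.8) at Hoxb and 20.5% (12.9 to 31.2) at Hoxd. At 6.67% (3.27 to 13.1), the Hoxc interval lay apart from that of Hoxb and overlapped those of Hoxa and Hoxd. In the other direction, the replicate 2 peaks overlapped by replicate 1 were 33.3% at Hoxa, 31.6% at Hoxb and 38.5% at Hoxd, and the Hoxc interval, around 15.8%, overlapped those of all 3. Replicate 2 covered 5.63% of the Hoxc window, against 9.59% at Hoxa, 9.56% at Hoxb and 8.71% at Hoxd. The overlaps were not adjusted for this, and no test of their differences was made.

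**Figure D5:**
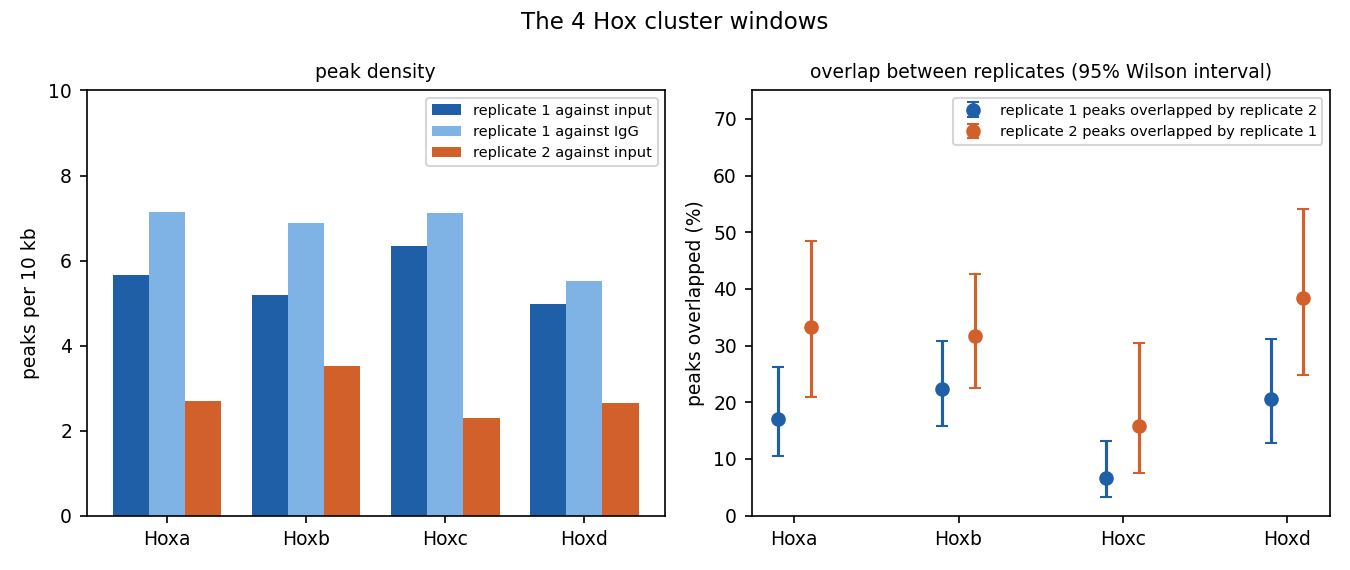
Peaks per 10 kb (left) and percentage of peaks overlapped by the other replicate with 95% Wilson intervals (right) in the windows of the 4 Hox clusters. Hoxc stands at 6.33 and 2.29 peaks per 10 kb in replicates 1 and 2 against input, and at 6.67% and 15.8% for overlap.

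Likeness to the Hoxc genes was measured over the covered shares of the gene record with 5 kb on each side in the 3 lists, as the Euclidean distance in percentage points to the mean of the 9 members, which was 10.5%, 14.9% and 5.94%. The 5 protein-coding genes outside the Hox clusters closest to it were Foxl2 (11.4%, 15.1% and 7.20%, at a distance of 1.57), Foxd3 (2.08), Nr2e1 (2.23), Pou3f2 (2.41) and Cbln1 (2.45). Foxl2 is a transcription factor of the ovary and eyelid, Foxd3 of early neural crest, Nr2e1 and Pou3f2 of neural progenitors, and Cbln1 a synaptic protein of the cerebellum. Each member locus was covered more than 98.6% (Hoxc13 in replicate 2) to 99.98% (Hoxc11 in replicate 1) of protein-coding genes. These loci overlap, since the Hoxc5 record of 49987 bp runs from inside Hoxc10 over Hoxc9, Hoxc8 and Hoxc6. The members are therefore not separate measurements, and the same bases can enter their mean more than once.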

How the data were processed

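ChIP-seq libraries of postnatal day 3 molar mesenchyme were grouped by the labels into 2 H3K27me3, 2 input and 1 IgG library. The members and lists were chosen with earlier results of these data known. Per the study's methods and the submitters' processing notes, reads were aligned to GRCm38 (mm10) with BWA, uniquely mapped reads were sorted with SAMtools, and broad peaks were called per library, not pooled, with MACS2 2.1.1.20160309. Per the file headers the p-value cutoff was 0.005, 1 tag was kept per position, local background came from 1 kb and 10 kb, and the larger library was scaled to the smaller. The modelled fragment length, 46 bp in replicate 1 and 71 bp in replicate 2, was shorter than the tags, so pileups and peak lengths were not extended to nucleosome size. The deposited pileup is a signal, the scaled number of overlapping tags. The authors' fold enrichment is a ratio of pileup to control with a pseudocount of 1. The deposited p-values are on a −log10 scale, and q-values were not used. The other 2 formats of each list were not used.

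Peaks (1-based, closed) were intersected with GENCODE M21 genes, in Python 3.11.15 with NumPy 2.4.6, by at least 1 base, and sequence was read from GRCm38.p6 with pysam 0.24.0. The interval arithmetic was tested on simulated data. A promoter was 1 kb on each side of the 5′ end of the gene record. All 9 members were described, other genes of the window were named where a peak of any list lay in them and genes within 250 kb only where a promoter had a peak. Mir615, which falls outside this rule, was named after its values were seen. No peak lay past a chromosome end of the reference, and 9 replicate 2 peaks off the nuclear chromosomes were left out of genome-wide shares. With 2 H3K27me3 libraries and no second condition no group test was possible, so counts, shares, mean ± SD (n = 2) and 95% Wilson intervals are given, the latter covering counting error only. Every table column with per-sample values was matched to a sample.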

Additional observations from a re-analysis of the deposited data

How the results depend on the processing

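No paired analysis was possible because the results come from no test. Keeping only peaks enriched at least 3-fold, the count of Hoxc promoters marked in both replicates fell to 0 and the covered share to 0.332%. The mean peak number fell to 7 and the excess of the window over the 250 kb on each side to 0.302 points. The replicate 1 peaks overlapped by replicate 2 fell to 0% and the input-called peaks overlapped by IgG-called ones to 42.9%. The common merged stretch fell to 0 kb, while the posterior minus anterior difference turned to 0.145. Replicate 2 had no window peak at this threshold, so the 0 promoters, the 0% overlap and the 0 kb stretch were fixed in advance. The means had only replicate 1 peaks behind them, and the overlap of replicate 2 peaks and the CpG ratio could not be computed. Since fold enrichment is not comparable between replicates, this threshold does not treat them alike. At a p-value of 0.001 or lower the same measures were 0, 0.516%, 6, 0.327, 0%, 50% and 0 kb, with −0.986 for the posterior minus anterior difference and 0% of replicate 2 peaks overlapped. IgG in place of input turned that difference to 0.461. With replicate 2 reduced to as many peaks as replicate 1 it was −1.20 and 3 promoters were marked in both. The split at Hoxc10 gave −0.516. Promoters of 500 bp gave 3, as did principal starts, an alternative chosen after seeing the data. For these counts and that of the reduced list, no share over all protein-coding genes is given. Overlap by at least 50% of the shorter peak left 2.86% of replicate 1 peaks. Counting a peak within 1 kb as shared, also chosen after seeing the data, gave 43.8% of replicate 1 and 73.7% of replicate 2 peaks. Merging at 1 kb left 0.843 kb in common and merging at 10 kb gave 157.597 kb. Without either H3K27me3 replicate, peak numbers ranged from 38 to 105, the longest stretch from 16.7 to 84.8 kb and promoters from 7 to 8. The covered share then ranged from 5.63% to 10.9% and the excess over the 250 kb sides from 4.16 to 9.82. The posterior minus anterior difference ranged from −0.923 to −0.746 and the CpG difference from 0.000757 to 0.0620. Of 68 alternatives, 38 stayed within the spread, interval or 1.5-fold bound of their measure. This count is no measure of robustness. For the covered share, the excess over the 250 kb sides, the posterior minus anterior difference and the CpG difference, part of it was fixed in advance. Leaving out 1 of 2 libraries always keeps such a mean within its SD. The thresholds leave fewer peaks by construction, and other causes were not tested.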
